A study of Homo sapiens with 6 samples.

Results

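The 51 genes described here encode the proteins that mark, license and fire DNA replication origins and that copy DNA at the fork, from the origin recognition complex to the chromatin assembly factor. They were chosen by symbol and make up 51 of the 27470 genes in the deposited count table. All 51 had counts in every library, and all passed the filter on low counts that left 12233 genes for testing. The cells were 22Rv1-ABHD5, derived from 22Rv1, an established line of castration-resistant human prostate cancer, by infection with a lentivirus in which Dox drives ABHD5, followed by selection with G418. The 3 libraries labelled Control came from these cells without Dox and the 3 labelled OE (overexpression) from the same cells with Dox, both after 48 h in culture. Both conditions carried the transgene, and the line is described neither as a clone nor as a pool of clones. No library of parent cells treated with Dox was analysed here, so Dox itself and ABHD5 cannot be told apart.

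DNA replication starts with licensing, in which the origin recognition complex, CDC6 and CDT1 load the MCM helicase onto DNA before S phase. The kinase CDC7-DBF4, CDC45 and GINS then switch the helicase on, and polymerases alpha, delta and epsilon copy both strands with the help of the sliding clamp PCNA, the single-strand binding protein RPA and the enzymes that join Okazaki fragments. Many of these genes are transcribed from late G1 into S phase by E2F factors, and their RNA is used as a mark of proliferating cells. In bulk RNA such as this, fewer cells in S phase and less RNA per cell cannot be told apart.

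The libraries held 3394672 to 7271771 counts on genes, and the members had at least 19 counts in any library, so none lay at the limit of detection of 3 counts. The share of listed reads outside any gene was 32.5% to 34.6% without Dox and 35.6% to 39.5% with Dox, and the part of this difference in the results was not tested. ABHD5 was counted at 63.5, 58.0 and 62.8 CPM (counts scaled to a common library total, with TMM factors) in replicates 1 to 3 without Dox and at 126, 131 and 91.7 CPM with Dox. In edgeR's quasi-likelihood fit it rose by 0.91 on the log2 scale (standard error 0.15, adjusted p = 0.000198), and the conditions did not overlap. The reads come from the 3ʹ ends of transcripts, and whether those of the transgene were counted as ABHD5 is not stated. The rise therefore need not measure how far the transgene was induced. All 10 prostate luminal markers were detected, with a summed level of 1750 to 1850 CPM without and 1160 to 1280 CPM with Dox. The summed leukocyte markers stood at 2.09 to 4.34 and 3.94 to 5.01 CPM, the fibroblast markers at 4.96 to 9.43 and 6.12 to 9.98 CPM, and 3 of the 4 endothelial markers were at 0 in all 6 libraries.

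The replication genes were lower as a group in cells with Dox. Their summed level was 6230, 6390 and 6380 CPM without Dox and 4270, 4150 and 3830 CPM with Dox, so that every library with Dox lay below every library without. At an adjusted p under 0.05 in edgeR's quasi-likelihood test, 38 of the 51 members were lower with Dox, against 13.7% of all genes tested (25.5% in either direction). None was higher, against 11.9% of all genes tested, and 0 members were higher even at an unadjusted p under 0.05 in edgeR or DESeq2. The members' median log2 fold change was -0.69, where the median of all genes tested was 0.02, and the members ranged from -1.37 (RFC4) to 0.08 (POLD3). A log2 fold change below 0 was found for 48 of 51 members and for 48.5% of all genes tested. The conditions did not overlap, with Dox lower, for 39 members, against 20.5% of all genes tested.

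Most called members fell by less than 2-fold. The middle part of the 38 called members, between their quartiles, spanned log2 fold changes of -0.84 to -0.65. At least a 2-fold fall was reached by 4 of them, RFC4, GINS4, MCM10 and RFC3, where 3.23% of all genes tested were called and fell that far. Of the 13 members not called, all had 95% intervals that include 0, and for 12 the interval excludes a 2-fold fall. The exception was PRIM2, the large primase subunit and the member with the lowest counts. The spread between replicates was small, with a median coefficient of variation over the members of 8.37% without and 10.5% with Dox.

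**Figure D1:**
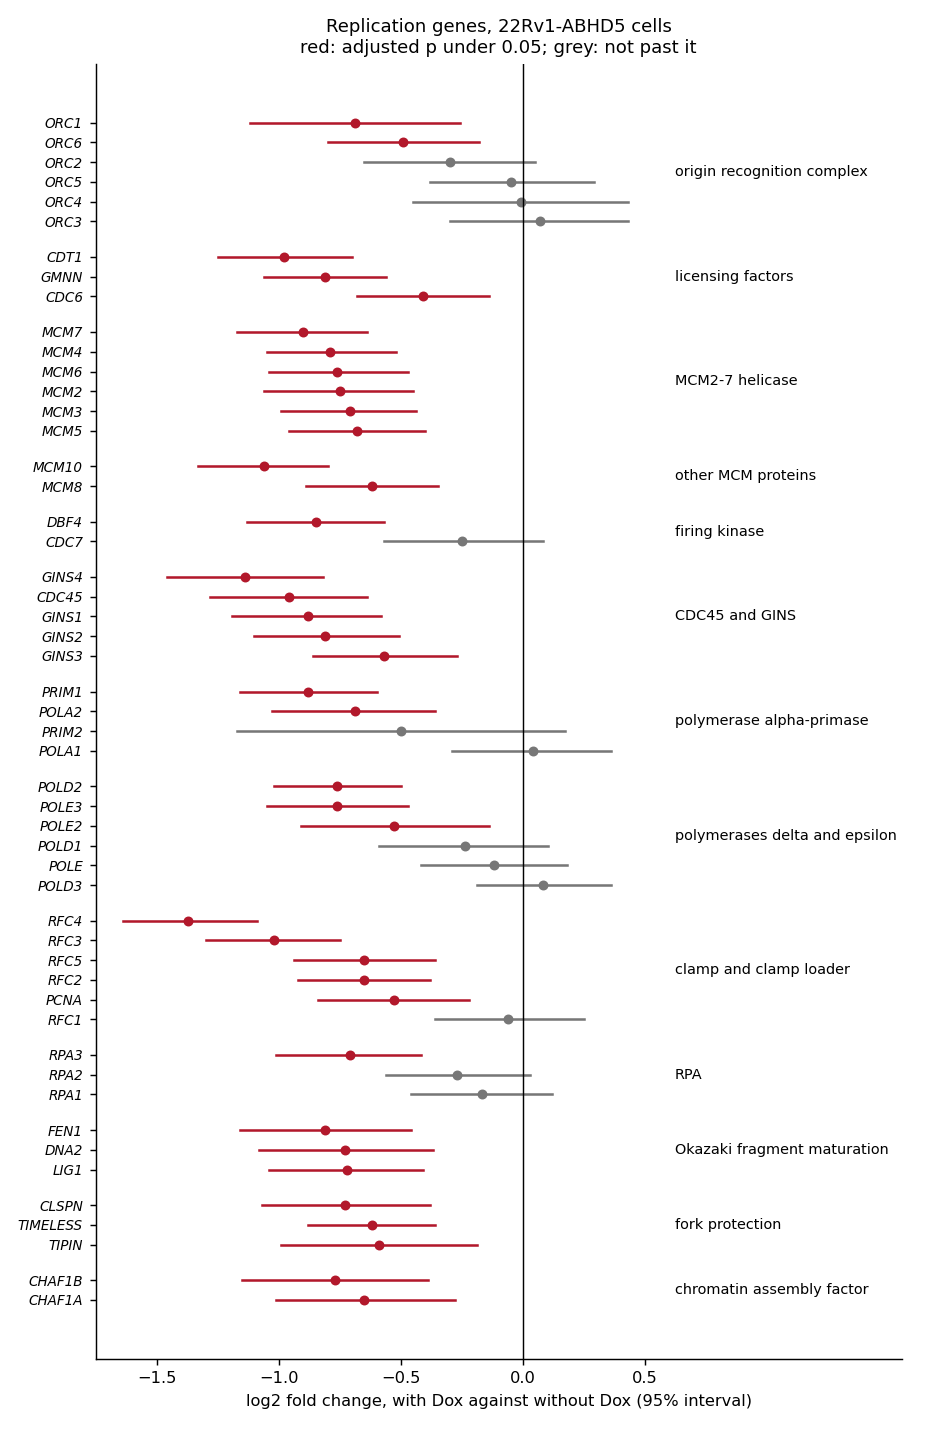
Log2 fold change of each of the 51 genes (x axis, with Dox against without Dox, 3 libraries each), grouped by role on the y axis, with 95% intervals from edgeR's quasi-likelihood fit. The 38 genes past the adjusted p threshold are red and lie left of 0, and the 13 others are grey and have intervals that cross 0.

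Each library with Dox showed the shift. Set against the mean without Dox, the median member stood at -0.58, -0.68 and -0.75 on the log2 scale in replicates 1 to 3 with Dox, and between -0.01 and 0.03 without Dox. The medians of all genes tested lay between -0.02 and 0.01 in the 6 libraries. Within the condition, replicate 3 with Dox lay below the condition's mean for 35 of 51 members, and replicate 1 lay above it for 39. The deepest fall was therefore in the library with the most counts, replicate 3 with Dox. Its counted ABHD5 level, which need not reflect the transgene, was the lowest of the 3 with Dox. A relation of the fall to either was not tested.

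**Figure D2:**
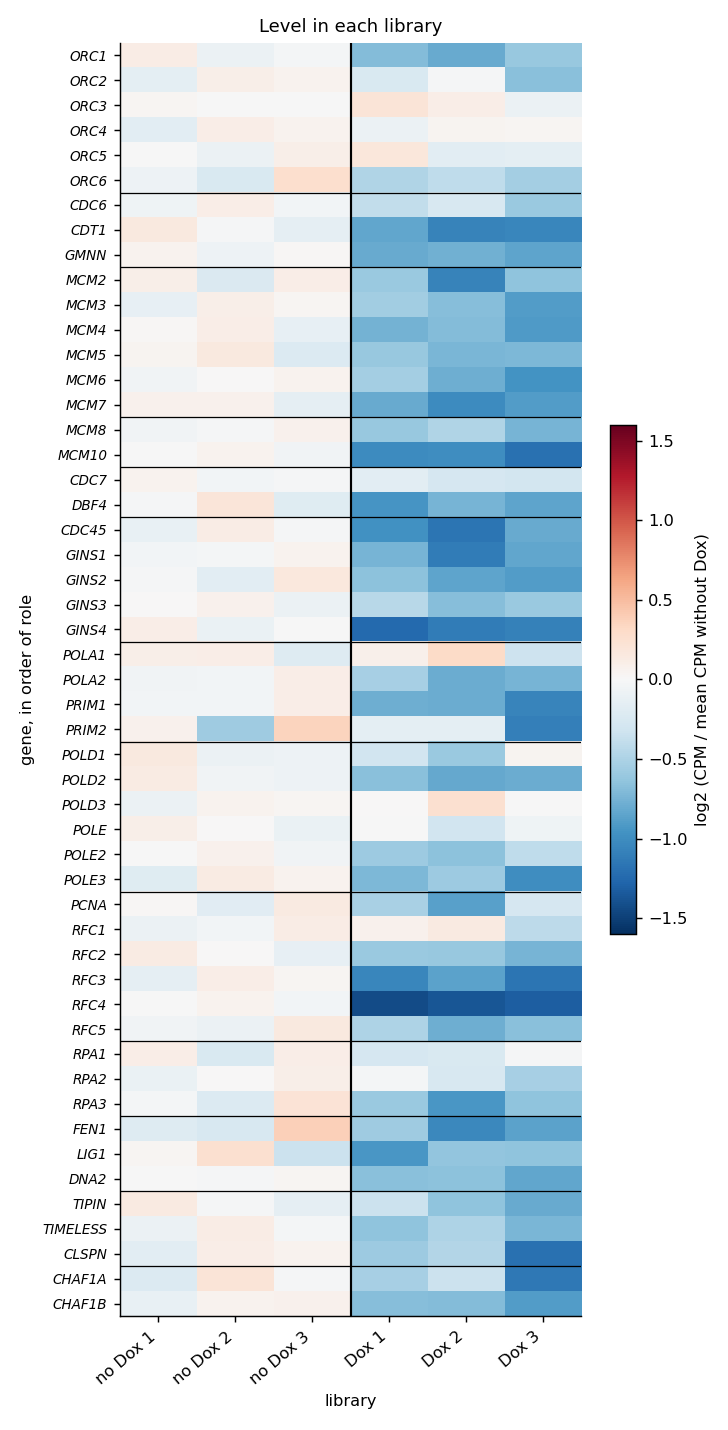
Level of each gene (rows, in order of role) in each of the 6 libraries (columns), as the log2 ratio of its CPM to the mean CPM without Dox. Columns with Dox are blue for most genes, while rows such as ORC3, ORC4, POLA1 and POLD3 show no shift shared by the 3 libraries with Dox.

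To show the sequence from which these genes are read, the promoters of 6 called members are printed, those with the smallest adjusted p once GINS4, which would be the fourth, is left out. The 2 members that changed least stand beside them. These are RefSeq sequences of GRCh38.p14, 250 bases before to 50 bases after the annotated start, in the direction of transcription. Capitals mark matches to 3 strings of letters taken as E2F sites, TTTCCCGC, TTTGGCGC and TTTCGCGC, on either strand. RFC4 (chr3:186806433-186806732, minus strand), a clamp loader subunit, and MCM10 (chr10:13161308-13161607, plus strand), which helps to activate the helicase, held no match. RFC3 (chr13:33817899-33818198, plus strand) and CDT1 (chr16:88803539-88803838, plus strand) held 1 each. The helicase subunit MCM7 (chr7:100101348-100101647, minus strand) held 2, and GMNN (chr6:24775163-24775462, plus strand), the inhibitor of CDT1, held 1. Among the least changed, ORC4 (chr2:148021502-148021801, minus strand) held none and POLA1 (chrX:24693668-24693967, plus strand) held 1.
RFC4: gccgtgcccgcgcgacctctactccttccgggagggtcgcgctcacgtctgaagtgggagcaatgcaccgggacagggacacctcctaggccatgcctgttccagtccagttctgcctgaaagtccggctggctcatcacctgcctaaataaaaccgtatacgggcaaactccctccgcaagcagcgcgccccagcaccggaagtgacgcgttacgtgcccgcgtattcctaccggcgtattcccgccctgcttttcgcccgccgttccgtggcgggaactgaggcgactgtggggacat
MCM10: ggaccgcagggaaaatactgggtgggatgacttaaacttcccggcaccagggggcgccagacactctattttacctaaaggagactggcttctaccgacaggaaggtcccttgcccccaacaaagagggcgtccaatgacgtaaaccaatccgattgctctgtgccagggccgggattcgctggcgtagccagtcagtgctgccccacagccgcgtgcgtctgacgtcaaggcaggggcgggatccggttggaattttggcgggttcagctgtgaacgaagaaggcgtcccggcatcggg
RFC3: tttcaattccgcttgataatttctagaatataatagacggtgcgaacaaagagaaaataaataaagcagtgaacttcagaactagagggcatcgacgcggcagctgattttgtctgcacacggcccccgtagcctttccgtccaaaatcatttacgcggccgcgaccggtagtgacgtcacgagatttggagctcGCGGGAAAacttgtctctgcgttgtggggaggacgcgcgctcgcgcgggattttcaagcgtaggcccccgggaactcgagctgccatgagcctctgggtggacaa
CDT1: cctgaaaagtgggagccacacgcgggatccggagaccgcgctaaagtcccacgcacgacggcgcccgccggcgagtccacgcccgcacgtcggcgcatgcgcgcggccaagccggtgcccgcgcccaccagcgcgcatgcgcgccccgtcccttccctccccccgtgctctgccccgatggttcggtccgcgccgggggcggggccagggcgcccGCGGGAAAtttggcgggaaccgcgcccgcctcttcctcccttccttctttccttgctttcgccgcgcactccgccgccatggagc
MCM7: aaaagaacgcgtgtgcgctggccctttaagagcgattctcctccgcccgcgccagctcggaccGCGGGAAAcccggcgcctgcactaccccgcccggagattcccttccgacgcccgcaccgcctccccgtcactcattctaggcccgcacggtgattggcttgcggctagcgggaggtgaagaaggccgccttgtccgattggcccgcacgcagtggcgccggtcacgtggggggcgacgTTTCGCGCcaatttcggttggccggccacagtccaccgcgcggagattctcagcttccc
GMNN: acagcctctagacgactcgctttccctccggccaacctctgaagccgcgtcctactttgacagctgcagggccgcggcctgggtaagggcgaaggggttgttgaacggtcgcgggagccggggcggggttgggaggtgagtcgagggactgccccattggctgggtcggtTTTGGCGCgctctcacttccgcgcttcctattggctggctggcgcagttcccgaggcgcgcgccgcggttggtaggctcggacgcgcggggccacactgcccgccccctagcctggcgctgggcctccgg
ORC4: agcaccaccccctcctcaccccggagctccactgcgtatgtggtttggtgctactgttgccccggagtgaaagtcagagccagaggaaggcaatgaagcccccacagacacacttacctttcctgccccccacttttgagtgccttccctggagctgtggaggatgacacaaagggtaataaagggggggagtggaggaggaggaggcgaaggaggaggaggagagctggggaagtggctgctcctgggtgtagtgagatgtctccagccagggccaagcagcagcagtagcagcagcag
POLA1: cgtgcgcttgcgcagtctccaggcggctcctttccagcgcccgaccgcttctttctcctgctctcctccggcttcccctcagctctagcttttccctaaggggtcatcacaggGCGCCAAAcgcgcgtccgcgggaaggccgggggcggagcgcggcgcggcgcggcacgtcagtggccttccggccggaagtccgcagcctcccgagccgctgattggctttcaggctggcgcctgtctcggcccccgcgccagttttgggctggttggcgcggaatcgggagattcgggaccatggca

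E2F letters were frequent in the promoters of the whole set. A promoter entry was found for 44 members, of which 22 (50%) held at least 1 match, against 5.94% of the 9332 tested genes with an entry. Of all 35116 promoter entries of this length, each counted singly, 2.74% held a match. Called members held a match in 18 of 33 promoters (54.5%) and members not called in 4 of 11 (36.4%). Among 29 other replication factors with an entry, from a list described below, the share was 24.1%. It was 9.68% among all genes called lower and 3.83% among all genes called higher. The median GC content was 64.7% in promoters of called members, 65.7% in those of members not called and 65.0% in those of tested genes. The other string searched, TTTGAA on either strand, is the CHR element through which genes of G2 and mitosis are repressed. It was found in 2 members, DBF4 and POLE3 (4.55%), and in 13.4% of tested genes with an entry. Matches on opposite strands can overlap, as TTTGGCGC and TTTCGCGC do in MCM2, MCM6 and TIPIN. A match is a description of letters and not a measured binding site.

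**Figure D3:**
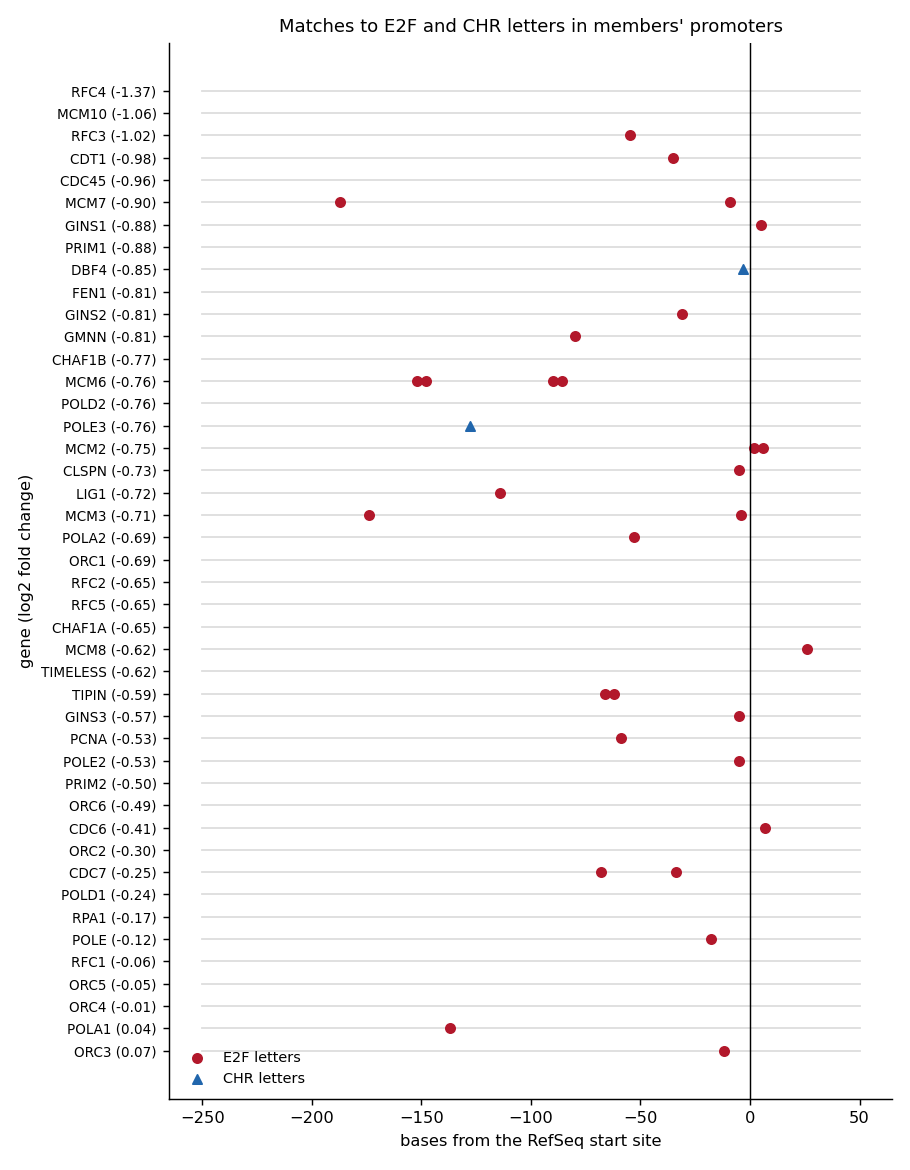
Position of each match, in bases from the RefSeq start site (x axis, start at 0), in the 44 genes with a promoter entry, ordered by log2 fold change on the y axis. E2F letters (circles) occur from the top to the bottom of the order, with no match in RFC4 and MCM10 and 1 match in POLA1 and ORC3, and CHR letters (triangles) are in DBF4 and POLE3.

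At the origin recognition complex, 2 of 6 subunits were lower. ORC1, the subunit whose level is controlled over the cell cycle, was counted at 19.1, 16.4 and 17.3 CPM without Dox and 10.9, 10 and 11.6 CPM with Dox. The conditions did not overlap, and ORC1 fell by 0.69 on the log2 scale (standard error 0.20, adjusted p = 0.0189). Without replicate 1 of either condition the call was lost, at an adjusted p of 0.0743 (without Control 1) and 0.0522 (without OE 1). ORC6, the smallest subunit, was also called (-0.49, adjusted p = 0.022), a call lost at -0.33 and an adjusted p of 0.151 when Control 3, the library where it was highest, was left out, and also without OE 1 (adjusted p = 0.0703) or OE 3 (adjusted p = 0.0501). ORC4 was at 11.8, 14.3 and 13.8 CPM without and 12.4, 13.6 and 13.5 CPM with Dox, fully overlapping, with a log2 fold change of -0.01 (95% interval -0.45 to 0.43, adjusted p = 0.982). Within the last 500 exonic bases of any of its coding transcripts, ORC4 shares 431 bases with ACVR2A on the opposite strand. The counts of ORC4 are therefore uncertain. ORC2, ORC3 and ORC5 had log2 fold changes of -0.30, 0.07 and -0.05 and were not called.

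All 3 licensing factors were lower. CDT1, which brings the helicase to the origin, was counted at 188, 167 and 152 CPM without Dox and 94.8, 80.4 and 81.3 CPM with Dox. It fell by 49.2% in the fit, with no overlap (log2 fold change -0.98, standard error 0.13, adjusted p = 2.97e-05). Its inhibitor geminin (GMNN) was lower alongside it, at a log2 fold change of -0.81 (adjusted p = 7.37e-05). CDC6, the ATPase that loads the helicase with CDT1 and the origin recognition complex, was at 175, 198 and 177 CPM without Dox. With Dox, CDC6 was at 140, 154 and 122 CPM. Its log2 fold change was smaller, at -0.41 (standard error 0.13, adjusted p = 0.0255). The conditions did not overlap for CDC6, but its call was lost when replicate 1 or 2 without Dox, or replicate 1 or 3 with Dox, was left out (adjusted p = 0.0549 to 0.0989).

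The 6 subunits of the replicative helicase, MCM2 to MCM7, all fell within a narrow range of log2 fold changes, -0.90 to -0.68. Their summed level was 1320, 1330 and 1240 CPM without Dox and 808, 716 and 726 CPM with Dox, and its mean fell by 42.3%. MCM7 was counted at 411, 412 and 352 CPM without and 223, 194 and 210 CPM with Dox (log2 fold change -0.90, standard error 0.12, adjusted p = 3.97e-05). The least changed subunit was MCM5, at 125, 134 and 104 CPM without and 79.2, 72.6 and 73.2 CPM with Dox (-0.68, standard error 0.13, adjusted p = 0.00102). Neither subunit's conditions overlapped, and the intervals of MCM7 (-1.17 to -0.64) and MCM5 (-0.96 to -0.40) overlap each other. MCM2, MCM3, MCM4 and MCM6 lay between them, at -0.75, -0.71, -0.79 and -0.76.

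Both members that share the MCM name without being part of this ring were lower. MCM10, which binds the fork and helps to activate the helicase, was at 123, 129 and 119 CPM without and 61.5, 62.1 and 54.1 CPM with Dox. It fell by 1.06 on the log2 scale (standard error 0.13, adjusted p = 9.02e-06), among the 4 members past 2-fold. MCM8, which acts with MCM9 in homologous recombination, was at 97.7, 100 and 107 CPM without and 66.3, 72.6 and 60.3 CPM with Dox (-0.62, standard error 0.13, adjusted p = 0.00178). Both genes showed no overlap between conditions.

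Of the firing kinase, the activating subunit fell and the catalytic subunit was not called. DBF4, which switches CDC7 on in S phase, was at 156, 181 and 138 CPM without and 81.8, 94.1 and 88.0 CPM with Dox (log2 fold change -0.85, standard error 0.13, adjusted p = 0.000146). CDC7 was at 35.0, 32.6 and 33.2 CPM without and 29.8, 27.8 and 27.3 CPM with Dox. The conditions did not overlap for either gene, yet CDC7's log2 fold change of -0.25 (95% interval -0.57 to 0.08) had an adjusted p of 0.26.

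CDC45 and the 4 GINS subunits, which join the MCM ring to form the moving helicase, were all lower, and their sum fell by 44.6%. GINS4 was at 54.3, 46.5 and 49.7 CPM without Dox and 21.3, 23.1 and 23.8 CPM with Dox, with no overlap (log2 fold change -1.14, standard error 0.15, adjusted p = 2.9e-05). GINS3 was at 60.3, 63.0 and 56.2 CPM without and 43.7, 37.3 and 39.7 CPM with Dox, also with no overlap (-0.57, standard error 0.14, adjusted p = 0.00631). CDC45, GINS1 and GINS2 lay between them, at -0.96, -0.88 and -0.81.

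Polymerase alpha-primase lays down the RNA-DNA primers, and 2 of its 4 subunits were called lower. PRIM1, the catalytic primase subunit, was at 94.3, 94.3 and 105 CPM without and 57.2, 56.2 and 47.0 CPM with Dox (log2 fold change -0.88, standard error 0.13, adjusted p = 0.000108). The conditions did not overlap. Within the last 500 exonic bases of any coding transcript, PRIM1 shares 139 bases with NACA on the same strand. NACA was not called (0.08, adjusted p = 0.692). POLA1, the catalytic polymerase subunit, was at 161, 163 and 131 CPM without and 160, 188 and 120 CPM with Dox. Its conditions overlapped, and its log2 fold change of 0.04 had a 95% interval of -0.29 to 0.36 (adjusted p = 0.882). The accessory subunit POLA2 was lower (-0.69, adjusted p = 0.00376), and PRIM2 (-0.50, 95% interval -1.17 to 0.17, adjusted p = 0.271) was not called. PRIM2 has an unprocessed copy in the annotation, so its counts are uncertain.

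Among polymerases delta and epsilon, which extend the lagging and leading strands, 3 of 6 members were lower. POLD2, an accessory subunit of delta, was at 192, 168 and 165 CPM without and 110, 99.1 and 101 CPM with Dox, with no overlap (log2 fold change -0.76, standard error 0.12, adjusted p = 0.000201). POLD3, another accessory subunit, was at 70.3, 77.5 and 76.1 CPM without and 74.6, 89.1 and 74.2 CPM with Dox. Its conditions overlapped (0.08, 95% interval -0.19 to 0.36, adjusted p = 0.692). The histone-fold subunit POLE3 fell by 0.76 on the log2 scale (adjusted p = 0.000582), and the accessory subunit POLE2 was just past the threshold (-0.53, adjusted p = 0.042). The call of POLE2 was lost in 10 of 14 alternatives, among them leaving out any library but OE 3 (adjusted p = 0.071 to 0.106). The catalytic subunits POLD1 (-0.24, 95% interval -0.59 to 0.10, adjusted p = 0.303) and POLE (-0.12, 95% interval -0.42 to 0.18, adjusted p = 0.596) were not called. None of the 3 catalytic polymerase subunits, POLA1, POLD1 and POLE, was thus called, a grouping chosen after the values were seen.

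In the clamp and its loader, 5 of 6 members were lower. RFC4, a small subunit of the loader, had the largest fall of all members. It was at 94.0, 98.3 and 92.3 CPM without Dox and 35.2, 36.7 and 38.1 CPM with Dox, with no overlap. It fell by 61.2% in the fit (log2 fold change -1.37, standard error 0.13, adjusted p = 6.91e-07). Within the last 500 exonic bases of any coding transcript, RFC4 shares 18 bases with EIF4A2 on the opposite strand. EIF4A2 was higher with Dox (0.86, adjusted p = 0.000759). RFC3, RFC2 and RFC5, the other small subunits, fell by 1.02, 0.65 and 0.65 on the log2 scale. RFC1, the large subunit, was at 253, 262 and 293 CPM without and 282, 296 and 201 CPM with Dox. Its conditions overlapped (-0.06, 95% interval -0.36 to 0.25, adjusted p = 0.817). PCNA, the clamp that holds polymerases on DNA, was at 255, 221 and 277 CPM without and 175, 138 and 208 CPM with Dox. It was lower (-0.53, standard error 0.15, adjusted p = 0.0144) with no overlap, but the call was lost when Control 3 was left out (adjusted p = 0.0551) or OE 1 (adjusted p = 0.055).

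Of the RPA trimer, which coats single-stranded DNA, the smallest subunit was the member called. RPA3 was at 222, 194 and 263 CPM without and 149, 119 and 145 CPM with Dox, with no overlap (log2 fold change -0.71, standard error 0.14, adjusted p = 0.00106). Within the last 500 exonic bases of any coding transcript, RPA3 shares 94 bases with UMAD1 on the opposite strand (0.34, adjusted p = 0.265). RPA1, the large subunit, was at 99.5, 78.1 and 98.3 CPM without and 76.3, 77.4 and 90.8 CPM with Dox. Its conditions overlapped (-0.17, 95% interval -0.46 to 0.12, adjusted p = 0.386). RPA2 was also not called (-0.27, adjusted p = 0.183).

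The 3 enzymes that finish Okazaki fragments were all lower. The flap endonuclease FEN1 was at 216, 209 and 326 CPM without and 169, 123 and 138 CPM with Dox (log2 fold change -0.81, standard error 0.17, adjusted p = 0.00165). Replicate 3 stood above the other libraries without Dox, and the conditions did not overlap. The nuclease-helicase DNA2 was at 28.7, 28.5 and 29.7 CPM without and 18.3, 18.4 and 16.3 CPM with Dox, also with no overlap (-0.73, standard error 0.17, adjusted p = 0.0044). LIG1, the ligase that seals the nicks, fell by 0.72 on the log2 scale (adjusted p = 0.00172).

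The fork protection genes and the chromatin assembly factor were lower as well, 3 of 3 and 2 of 2. TIMELESS, which steadies the paused fork, was at 213, 248 and 223 CPM without and 145, 163 and 137 CPM with Dox (log2 fold change -0.62, standard error 0.12, adjusted p = 0.00132). Its partner TIPIN was at 28.2, 25.1 and 23.2 CPM without and 20.0, 16.4 and 14.6 CPM with Dox. It was lower (-0.59, standard error 0.19, adjusted p = 0.0297), a call lost without replicate 1 or 2 without Dox or replicate 3 with Dox (adjusted p = 0.0554 to 0.119). The conditions did not overlap for either partner. The checkpoint mediator CLSPN fell by 0.73 on the log2 scale (adjusted p = 0.00318). CHAF1B, a subunit of the factor that places histones on new DNA, was at 23.8, 26.7 and 27.1 CPM without and 16.1, 15.9 and 13.9 CPM with Dox (-0.77, standard error 0.18, adjusted p = 0.00463). CHAF1A, its large subunit, was at 129, 172 and 148 CPM without and 104, 118 and 67.9 CPM with Dox (-0.65, standard error 0.17, adjusted p = 0.0107). Neither subunit's conditions overlapped, and replicate 3 with Dox was the lowest for both.

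Because some subunits of a complex were called and others were not, their counts were also set against each other within each library. In such ratios library scaling drops out. For 19 pairs, chosen after the values were seen, 10 ratios were lower in every library with Dox than in any without. In 1 pair, ORC4 to ORC2, the ratio was higher without overlap. The share of all genes tested with a higher ratio to ORC2 was not counted. The counts of ORC4 are also uncertain, so nothing is read from that pair. An exact permutation test of 3 against 3 libraries cannot give a p under 0.1. No pair could therefore pass 0.05 in it, and no conclusion is drawn from that test. The log2 ratio of RFC4 to RFC1 was -1.43, -1.41 and -1.66 without Dox and -3, -3.01 and -2.40 with Dox. Ratios to RFC1 also fell without overlap for RFC2, RFC3 and RFC5, by 0.58, 0.95 and 0.58, where 10.5% of all genes tested had a non-overlapping, lower ratio to RFC1. Ratios to POLA1 fell without overlap for POLA2 (by 0.72) and PRIM1 (by 0.90), against 13.2% of all genes tested. The ratio of DBF4 to CDC7 fell by 0.60 (9.53% of genes), that of POLD2 to POLD1 by 0.48 (5.4%), that of POLE2 to POLE by 0.42 (11.8%) and that of RPA3 to RPA1 by 0.54 (9.57%), all without overlap. In the origin recognition complex the ratios of ORC1 and ORC6 to ORC2 overlapped between conditions.

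**Figure D4:**
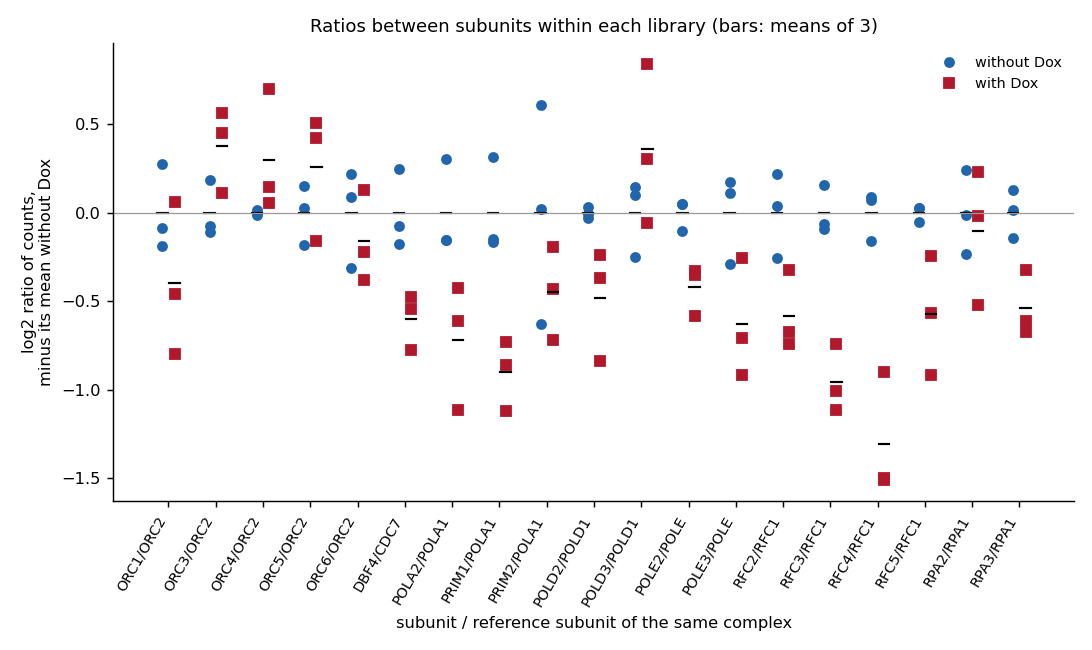
Log2 ratio of counts between subunits of the same complex in each library (y axis), minus its mean without Dox, for 19 pairs (x axis), with circles for the 3 libraries without Dox, squares for the 3 with Dox and bars for means. The lowest squares are those of RFC4 to RFC1, with a mean difference of -1.30, while ratios such as RPA2 to RPA1 overlap.

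Genes that act beside the members were read from lists in the same fit. Of 35 other replication factors tested, 22 (62.9%) were lower and 0 higher, against 13.7% and 11.9% of all genes tested. Their median log2 fold change was -0.51. RNASEH2A, which removes RNA from DNA, was at 78.4, 88.7 and 74.2 CPM without and 34.8, 31.2 and 35.3 CPM with Dox (-1.24, adjusted p = 5.02e-06). The histone chaperone ASF1B (-1.25, adjusted p = 9.46e-06), the helicase activation factor TICRR (-1.48, adjusted p = 2.88e-05) and the topoisomerase TOP2A (-0.99, adjusted p = 2.88e-05) followed. The remaining small subunits of polymerases delta and epsilon, POLD4 and POLE4, were lower too, at -0.51 (adjusted p = 0.00942) and -0.60 (adjusted p = 0.0107).

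Among 9 genes tested for the supply of deoxynucleotides, 6 (66.7%) were lower and 1 higher, against 13.7% and 11.9% of all genes tested. Their median was -0.73. The ribonucleotide reductase subunits RRM1 and RRM2 fell by 0.91 and 0.92 on the log2 scale (adjusted p = 3.17e-05 and 9.51e-05). The reductase subunit RRM2B, which p53 induces and which supplies cells outside S phase, was at 53.5, 52.1 and 49.6 CPM without and 69.6, 68.5 and 74.2 CPM with Dox. It was the member of that list that rose (0.46, adjusted p = 0.0166), and its conditions did not overlap.

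DNA polymerase genes other than those of alpha, delta and epsilon were read beside them. Of 13 such genes tested, 2 were lower (15.4%, against 13.7% of all genes tested) and 3 higher (against 11.9%). Their median was 0.03. The difference between these genes and the members was not tested. POLQ, of end joining, fell by 0.73 (adjusted p = 0.00523) and MAD2L2, a subunit of polymerase zeta, by 0.46 on the log2 scale (adjusted p = 0.0287). The translesion polymerase genes REV3L (0.52, adjusted p = 0.00749), POLI (0.63, adjusted p = 0.0104) and POLK (0.44, adjusted p = 0.0255) were higher. Of 12 RNA polymerase II subunit genes, 1 (8.33%) was lower, POLR2E (-0.48, adjusted p = 0.0206), and 0 were higher, with a median of -0.18.

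**Figure D5:**
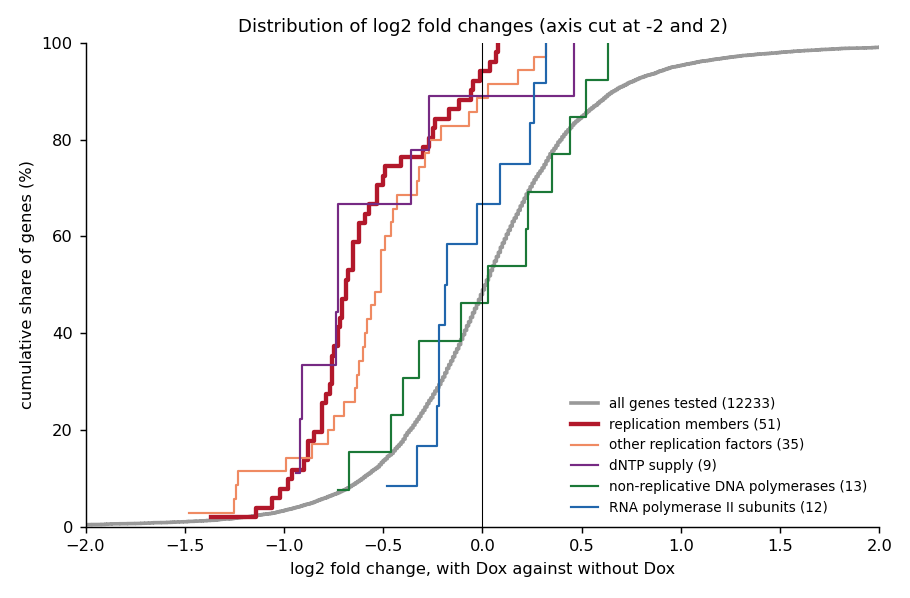
Cumulative share of genes (y axis, %) against log2 fold change with Dox (x axis, limited to -2 to 2) for all 12233 genes tested, the 51 members and 4 other lists. The curves of the members, the other replication factors and the deoxynucleotide genes lie to the left of that of all genes, with medians of -0.69, -0.51 and -0.73. The curve of DNA polymerases other than alpha, delta and epsilon, named non-replicative in the legend, has a median of 0.03.

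The transcription factors that act on many replication promoters were read in the same way. Of 13 E2F and pocket protein genes, 6 (46.2%) were lower and 2 higher, against 13.7% and 11.9% of all genes tested. Their median was -0.39. E2F2 (-1.34, adjusted p = 3.34e-06), E2F3 (-1.27, adjusted p = 4.46e-05) and E2F8 (-1.26, adjusted p = 0.000318) had the smallest adjusted p among those lower. TFDP2, a dimer partner of E2F factors, and RBL2, the pocket protein p130, were higher, at 0.63 (adjusted p = 0.00215) and 0.44 (adjusted p = 0.0276). Of the members, 18 are also in a commonly used list of S phase genes, written from memory. Of these 18, 15 (83.3%) were lower, with a median of -0.74. Of the 33 that are not in that list, 23 (69.7%) were lower, with a median of -0.65.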

How the data were processed

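RNA of 22Rv1-ABHD5 cells without and with Dox (n = 3 libraries each) was made into 3ʹ mRNA libraries. The labels give the FWD kit and the paper's methods the REV kit. Single-end reads were aligned to hg38 with STAR by the authors, whose deposited table holds raw counts for each gene symbol. The submitters' processing notes also name CASAVA 1.8.2, FastQC, HTSeq and edgeR. Which annotation was used and whether strand was counted is not given in the sources used here, so overlapping genes are uncertain. The authors also deposited a normalized signal per library, whose scaling method is not given; it was used as an alternative, without 27 rows that had no value of the same name. Summary rows with no gene name did not enter library sizes or tests (no feature, 32.5% to 39.5% of the reads listed; ambiguous, 3.05% to 3.37%).

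Counts were tested with edgeR 4.0.16 in R 4.3.3 (quasi-likelihood test after TMM normalization and filterByExpr), and p-values were adjusted by Benjamini-Hochberg over all 12233 genes tested, with a threshold of 0.05. All p-values in the text are from this fit unless another is named. The standard error is the absolute log2 fold change over the square root of F. With DESeq2 1.42.0 and limma 3.58.1 (log2 of the normalized value plus 1) the test was repeated as an alternative. The limit of detection was 3 counts, 0.394 to 0.930 CPM, and covers counting error only, since reads carry no molecular identifiers. Because 3ʹ libraries give reads from the end of each transcript, levels were not divided by length and no gene's level is called higher or lower than another's. Ratios between subunits serve to compare conditions. Nothing states that the libraries came from separate cultures, so p-values measure the spread between these libraries. Replicates of a condition differed by more than sampling noise (chi-square per degree of freedom 4.07 to 11.3).

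The members and all lists were chosen with earlier results of these data known. In each role, values per library are given for the members with the smallest and the largest adjusted p, and in each other list up to 3 called genes per direction are named, those of smallest adjusted p, except 1 that is not reported here. GINS4 was left out of the promoters shown. Other genes named with values, PCNA, POLD4 and POLE4 among them, were chosen after their values were seen. Promoters are those of RefSeq on GRCh38.p14, where any of a gene's entries was counted and the entry with most matches is shown. Places and overlaps of genes are those of GENCODE 44 on hg38. Of 18 named pseudogene copies of 11 members, 1 was a row of the count table, and it had no counts. A planned comparison of protein sequences was not done here.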

Additional observations from a re-analysis of the deposited data

How the results depend on the processing

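Of the 38 members called lower, 32 kept the call in all 14 alternatives of scaling, filter, test, values, block and libraries. ORC1, ORC6, CDC6, POLE2, PCNA and TIPIN lost it in at least 1, and no member was called higher in any. Members called lower numbered 33 with library totals alone, 36 with DESeq2 and 37 or 38 under the other scalings, filters and the deposited normalized values. They numbered 33 to 37 with each library left out, with a median of -0.73 to -0.65. Library totals alone shifted all genes, with a median of 0.14 in place of 0.016 and with 65.7% of calls higher in place of 46.4%. The members' median became -0.57 with them and -0.64 with upper-quartile normalization, and the calls of ORC6, CDC6, POLE2, PCNA and TIPIN were lost with library totals (adjusted p = 0.0744, 0.0982, 0.11, 0.0526 and 0.0743). DESeq2 lost those of POLE2 (adjusted p = 0.0962) and TIPIN (0.0597), and upper-quartile normalization that of POLE2 (0.0664). A demand for a 2-fold change left 923 genes and 4 members called. With TTTCCCGC as the sole E2F string, 9 of 33 called members with a promoter entry held a match (27.3%), in place of 18. The share was then 18.2% of members not called and 3.6% of tested genes with an entry. With matches from 75 bases before the start onwards, 15 called members held a match (45.5%). That share was 27.3% of members not called and 2.4% of tested genes.

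Members near 0 changed sign, with no call in either direction. With library totals the log2 fold changes were 0.11 for ORC4, 0.076 for ORC5, 0.0052 for POLE and 0.064 for RFC1. With upper-quartile normalization ORC4 stood at 0.047 and ORC5 at 0.0098, and with at least 10 counts in every library ORC4 stood at 0.015. With each library left out in turn, the ranges were -0.0084 to 0.16 for ORC3, -0.1 to 0.031 for ORC4, -0.17 to 0.016 for ORC5, -0.12 to 0.2 for POLA1, -0.0064 to 0.13 for POLD3 and -0.16 to 0.1 for RFC1. The cause was not tested.

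Whether replicate numbers pair the libraries cannot be told from 3 libraries per condition. The correlations of deviations were -0.01, 0.23 and 0.09 for the same numbers, and -0.17 to 0.1 for different numbers. With the replicate number as a block, 3537 genes were called in place of 3125, 38 members were lower, and the members' median was -0.69.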

Other observations

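Several replication genes start head to head with another gene on the opposite strand, so that both are read from the same stretch of DNA. Within 1000 bases, 17 members had a tested neighbour of this kind, at a median distance of 173 bases between starts. Of these 17 neighbours, 3 were lower with Dox, 0 were higher and 14 were not called by edgeR's quasi-likelihood test. Of all genes tested, 13.7% were lower and 11.9% higher. The neighbours' median log2 fold change was -0.07. Among the 13 called members with such a neighbour, 1 had a neighbour called lower, UFD1 beside CDC45 (-0.55, adjusted p = 0.00337). MCM4 (-0.79) starts 7 bases from PRKDC, which had a log2 fold change of -0.26 (adjusted p = 0.206). PCNA (-0.53) starts 253 bases from CDS2 (0.05, adjusted p = 0.853), and GINS1 (-0.88) starts 173 bases from ABHD12 (0.02, adjusted p = 0.926). TIPIN (-0.59) starts 91 bases from MAP2K1, at 0.46 (adjusted p = 0.118). The other neighbours called lower, PXMP2 (-0.40, adjusted p = 0.0213) and SMYD4 (-0.62, adjusted p = 0.0156), stand beside POLE and RPA1, which were not called. The differences between members and neighbours were not tested.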
